A study of Homo sapiens with 9 samples.

Results

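Of the 26190 genes with values in this series, 62 were nearly silent in unedited Jurkat cells and were transcribed in both EZH2-edited lines. They were chosen on the values described here: a mean under 1 FPKM over the WT libraries, a mean of 3 FPKM or more in each edited line, and no edited library at 0. FPKM is the number of fragments per transcript length and library size, so levels can be compared between genes. The rule leaves out some genes by symbol, HOX, cadherin, EPH, ROBO, semaphorin and plexin genes among them, and 10 genes that met the same limits were dropped in this way: APP, CCND2, CTBP2, EPHA3, HOXD8, IGF2BP2, NRIP1, ROBO1, SLC27A2 and SLC7A8. Because the values of each edited line against WT chose the genes, those differences are given as a description without a test. The rule set no limit on the difference between KO2 and KO1, which was tested. The limit of 3 FPKM in each line still bears on that difference.

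Jurkat is an established cell line from a human T-cell leukaemia. Poly(A)-selected RNA was measured in 9 libraries of exponentially growing cells in complete RPMI medium: 3 of the CRISPR/Cas9-edited line EZH2-KO2, 3 of the CRISPR/Cas9-edited line EZH2-KO1 and 3 of the unedited line, EZH2-WT. The submitters call the 3 libraries of each line biological triplicates. Each edited line is a single line, and the sources used here give neither its guides nor its edit, nor say whether it is 1 clone. The p-values therefore rest on the spread among cultures of a line, not on independent edits.

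Polycomb repressive complex 2 silences genes through its enzyme EZH2, which methylates lysine 27 of histone H3 at the promoters of genes that a cell type keeps off. Many such promoters are rich in CpG dinucleotides and belong to developmental regulators, adhesion molecules and signalling genes of other lineages. Loss or inhibition of the complex is known to allow transcription of part of these genes, in a set that differs between cell types.

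FPKM summed to 417737 to 439704 per library, and 11028 to 11415 genes reached 1 FPKM. The number of reads is unknown; steps between low values gave depths of 0.964 to 1.16 relative to WT replicate 3. All 12 T-lineage markers, CD3D, CD3E, LCK and BCL11B among them, were at 1 FPKM or more in each line, but not all at the same level. CD2, a T-cell adhesion receptor, had a mean of 4.38 FPKM in KO2, 90.6 FPKM in KO1 and 35.8 FPKM in WT, CD5 had 18.7, 14.5 and 34.9 FPKM in KO2, KO1 and WT, and CD7 had 89.0, 90.005 and 49.7 FPKM. The sum of the 12 was 1627 to 1667 FPKM in KO2, 1403 to 1547 FPKM in KO1 and 1607 to 1722 FPKM in WT. Markers of other lineages that reached 1 FPKM in a group mean were CD79A and EBF1 of the B lineage, COL1A1 of fibroblasts, PECAM1 of endothelium, SNAP25 and TUBB3 of neurons, and the myeloid and natural killer markers described below, while no epithelial or erythroid marker did. The B-lineage markers summed to 20.03 to 23.1 FPKM in KO2, 50.5 to 60.005 FPKM in KO1 and 25.6 to 29.9 FPKM in WT, and PAX5 was at 0 in all libraries. The neural markers summed to 4.31 to 4.66 FPKM in KO2, 9.02 to 10.3 FPKM in KO1 and 2.84 to 4.82 FPKM in WT, with TUBB3 means of 2.99, 6.57 and 2.73 FPKM in KO2, KO1 and WT. CD79A gave most of the B-lineage sum, with means of 21.0 FPKM in KO2, 54.9 FPKM in KO1 and 27.5 FPKM in WT. Unlike the 62 genes, CD79A was on in WT, and its KO2 mean lay below its WT mean. The B-lineage and neural sums were higher in KO1 than in KO2, and the part of these markers in the results was not tested. The EZH2 transcript stood at 87.9, 89.9 and 90.7 FPKM in KO2, at 108, 107 and 103 FPKM in KO1 and at 74.4, 77.6 and 79.5 FPKM in WT. Every edited library lay above every WT library, as it did for 30.7% of the 11737 tested genes. A small edit need not lower the transcript, so these values are no check on the labels.

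The 62 genes were on at modest levels. Their means had a median of 4.36 FPKM in KO2 (range 3.02 to 26.1), 5.84 FPKM in KO1 (3.01 to 17.6) and 0.439 FPKM in WT (0.00161 to 0.978). The median of all genes at 1 FPKM or more was 13.7 FPKM in KO2 and 13.2 FPKM in KO1, and only PLEK in KO2 and NCAM1 in KO1 lay above it. WT was under 1 FPKM in every library for 54 of the 62 genes, and 13 had a WT mean under 0.1 FPKM, among them DACH1, MTUS1, PSD3, SORBS2 and MECOM. Every edited library reached 3 FPKM for 52 genes. Every edited library lay above every WT library for 61 genes; the limits that chose the genes bring this about, and 30.7% of the 11737 tested genes did so. Bulk RNA does not tell transcription in all cells from transcription in a part of them.

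The values of 1 of the 62 genes, H3F3A, are uncertain. This gene encodes histone H3.3, which cells generally make, and has near-identical copies that may share its reads. It was listed at 8.0, 0.00159 and 4.19 FPKM in KO2, at 3.78, 0.0017 and 7.60 FPKM in KO1 and at 0.00148, 0.00167 and 0.00168 FPKM in WT. Its libraries within each edited line differed more than the groups, and it passed the rule because the near-zero estimates are not exactly 0. It is counted among the 62, holds the lowest WT mean above, and is left out of the statements on levels that follow.

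**Figure D1:**
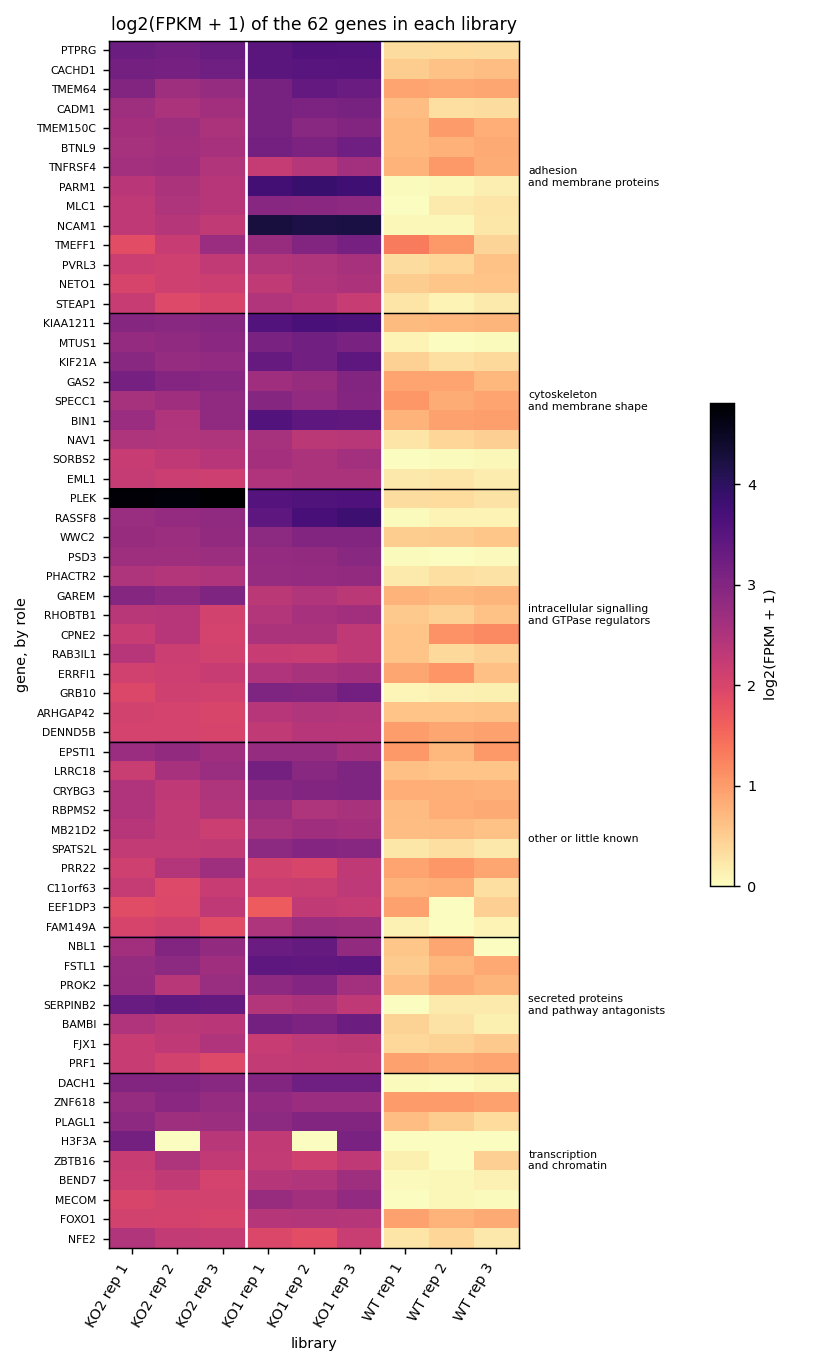
Log2(FPKM + 1) of the 62 genes (rows, grouped by role) in the 9 libraries (columns: 3 of KO2, 3 of KO1, 3 of WT), with darker colours for higher values. WT columns are pale throughout, PLEK is darkest in KO2, NCAM1 is darkest in KO1, and H3F3A alternates between high and near-zero values within both edited lines.

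The promoters of the 62 genes were mostly rich in CpG. RefSeq promoter windows (build GRCh38.p14, 250 bases before to 50 bases after the start, the most upstream start of each gene) were matched for 51 of them. Their ratio of observed to expected CpG had a median of 0.814, and 38 of 51 (74.5%) were at 0.6 or more. Among genes under 1 FPKM in all 3 groups the share was 36.4% of 7728, and among genes at 3 FPKM or more in all 3 groups it was 88.7% of 7580. The median window held 29 CpG in the 62 genes' promoters, 8 in those of genes that stayed under 1 FPKM and 27 in those of expressed genes. With any annotated start of a gene counted, the shares were 80.4%, 39.5% and 93.4%. This is a description of sequence and says nothing of what is bound there.

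The 200 bases before the start are shown for 3 CpG-rich promoters (PTPRG, BAMBI, GRB10) and for the 2 most CpG-poor promoters among the genes that were higher in KO2 than in KO1 (PLEK, SERPINB2). Each is written 5′ to 3′ on the gene's strand. Capitals mark CpG dinucleotides and, in SERPINB2, a TATAAA motif. They lie at chr3:61561371-61561570 (plus strand), chr10:28677321-28677520 (plus), chr7:50793454-50793653 (minus), chr2:68365082-68365281 (plus) and chr18:63887505-63887704 (plus).
PTPRG: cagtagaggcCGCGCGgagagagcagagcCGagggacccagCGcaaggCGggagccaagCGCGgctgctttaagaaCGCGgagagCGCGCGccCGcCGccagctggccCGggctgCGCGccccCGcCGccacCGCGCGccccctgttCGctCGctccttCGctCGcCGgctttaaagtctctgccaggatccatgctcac
BAMBI: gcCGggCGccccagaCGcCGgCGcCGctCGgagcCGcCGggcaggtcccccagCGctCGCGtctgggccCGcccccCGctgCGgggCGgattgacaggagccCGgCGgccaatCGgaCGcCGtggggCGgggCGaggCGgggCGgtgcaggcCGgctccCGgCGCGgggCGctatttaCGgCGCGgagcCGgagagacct
GRB10: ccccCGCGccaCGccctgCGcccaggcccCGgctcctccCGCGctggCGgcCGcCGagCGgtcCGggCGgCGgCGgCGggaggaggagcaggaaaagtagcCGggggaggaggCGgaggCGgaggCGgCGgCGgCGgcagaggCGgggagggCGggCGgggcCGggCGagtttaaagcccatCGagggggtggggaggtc
PLEK: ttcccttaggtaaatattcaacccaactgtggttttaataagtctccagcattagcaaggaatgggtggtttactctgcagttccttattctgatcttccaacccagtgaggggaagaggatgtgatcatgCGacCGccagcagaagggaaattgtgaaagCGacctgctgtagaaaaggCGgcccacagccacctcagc
SERPINB2: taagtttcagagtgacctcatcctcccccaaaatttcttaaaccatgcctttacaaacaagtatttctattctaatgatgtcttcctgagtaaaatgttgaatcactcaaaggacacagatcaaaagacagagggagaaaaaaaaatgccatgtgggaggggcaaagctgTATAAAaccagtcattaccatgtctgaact
These stretches held 28 CpG in PTPRG, 34 in BAMBI and 29 in GRB10, against 4 in PLEK and 0 in SERPINB2. TATAAA, on either strand, was found in 3 of the 51 windows (5.88%), those of SERPINB2, PROK2 and PHACTR2, and in 9.67% of all 17204 matched windows. The E-box CACGTG, which reads the same on both strands and is one form of CANNTG, was found in 4 of 51 (7.84%), against 8.65% of all windows. CANNTG was found in 60.8% against 65.5%, GCGC in 82.4% against 69.2% and TGACTCA in 1.96% against 3.95%.

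**Figure D2:**
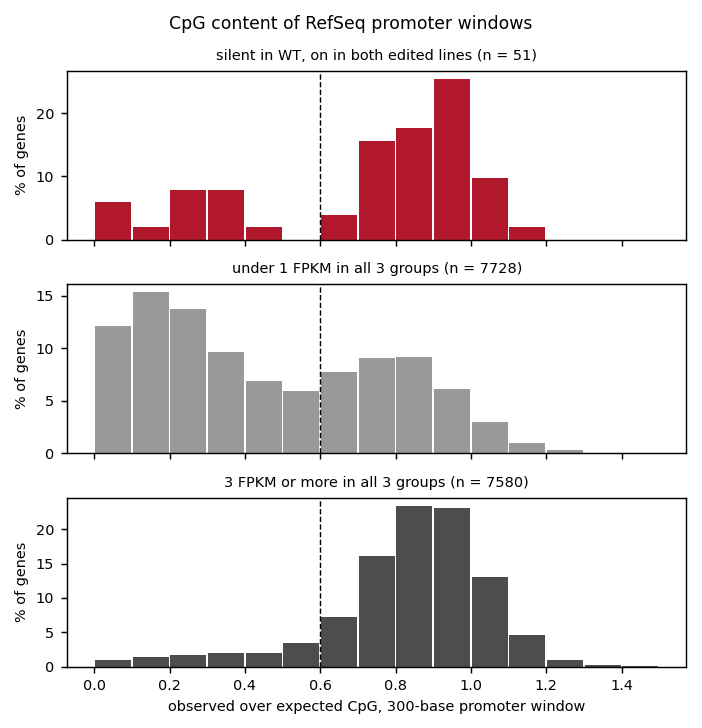
Distribution of the ratio of observed to expected CpG in 300-base promoter windows (x axis) as a percentage of genes (y axis), for 51 of the 62 genes, for 7728 genes under 1 FPKM in all groups and for 7580 genes at 3 FPKM or more in all groups. The dashed line marks 0.6: 74.5%, 36.4% and 88.7% of the genes lie at or above it.

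Most of the genes that were on in both edited lines had the higher level in KO1. Of the 62, 34 were lower in KO2 than in KO1, 3 were higher and 25 did not pass (limma, Benjamini-Hochberg adjusted p under 0.05 over all 11737 tested genes). Among all tested genes, 30.6% passed, 12.4% lower and 18.3% higher, so the members' 54.8% lower stood above the background and their 4.84% higher below it. The median difference, KO2 minus KO1 on the log2(FPKM + 1) scale, was -0.32 over the 62 genes and 0.04 over all tested genes. Every KO1 library lay above every KO2 library for 41 members, against 18.7% of tested genes, and every KO2 library above every KO1 library for 4, against 28.7%.

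The background split depended on scaling, while the members' split stayed on the side of KO1. Over all tested genes, 59.7% of the called genes were higher in KO2, but 49.3% after quantile normalization and 47.9% after centring each library on its median. Under both of these settings 38 members were lower and 3 higher. Among the other 3464 genes that were higher in both edited lines than in WT, 17.9% were lower and 9.73% higher in KO2, with a median difference of -0.02. All 10 genes left out by name were lower in KO2. The limit of 3 FPKM acts on both lines alike, and it keeps out 97 WT-silent genes that reached it only in KO1 and 25 that reached it only in KO2.

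**Figure D3:**
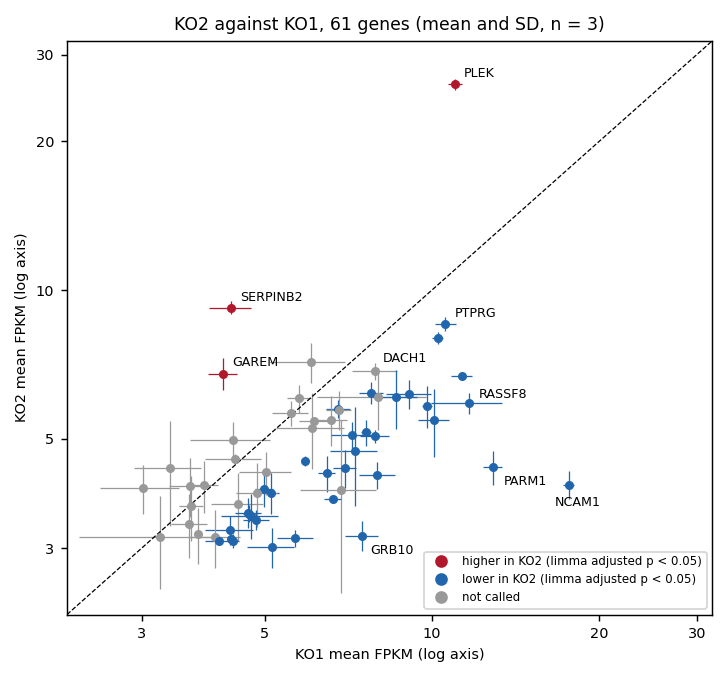
Mean FPKM in KO2 (y axis, log) against KO1 (x axis, log) for 61 genes, with SD over 3 libraries as error bars; H3F3A is not drawn. Most points lie below the dashed line of equality: 34 genes were lower in KO2 (blue), 3 were higher (red: PLEK, SERPINB2, GAREM), and grey points did not pass.

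PLEK, SERPINB2 and GAREM were the 3 genes that were higher in KO2. PLEK encodes pleckstrin, a substrate of protein kinase C known from platelets and leukocytes. It stood at 25.97, 25.5 and 26.9 FPKM in KO2, at 10.7, 11.1 and 11.3 FPKM in KO1 and at 0.262, 0.273 and 0.213 FPKM in WT. The groups did not overlap, and every KO2 library lay above every KO1 library (log2 difference 1.18 ± 0.057 SE, limma adjusted p = 3.03e-07). PLEK had the highest level of all 62 genes in KO2, and its paralogue PLEK2 was listed at 0 in all groups.

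SERPINB2, the plasminogen activator inhibitor PAI-2, stood at 8.96, 9.51 and 9.15 FPKM in KO2, at 4.39, 4.70 and 3.95 FPKM in KO1 and at 0, 0.14 and 0.141 FPKM in WT. All KO2 libraries lay above all KO1 libraries (0.94 ± 0.083, limma adjusted p = 2.22e-05). GAREM, an adaptor of growth factor receptor signalling that binds GRB2, stood at 6.81, 6.25 and 7.26 FPKM in KO2, at 4.06, 4.49 and 4.06 FPKM in KO1 and at 0.691, 0.629 and 0.679 FPKM in WT. Again the 2 lines did not overlap (0.58 ± 0.075, limma adjusted p = 0.000259). Of these 3 promoters, those of PLEK and SERPINB2 were CpG-poor (ratios 0.244 and 0.088) and that of GAREM was CpG-rich (1.00). Of the 29 matched promoters of genes lower in KO2, 23 were at 0.6 or more. So were 14 of the 19 of genes that did not pass, with median ratios of 0.814 and 0.844. CpG-poor promoters also occurred among genes lower in KO2, such as LRRC18 (ratio 0) and PHACTR2 (0.064). With any annotated start counted, the highest ratio was 0.163 for LRRC18 but 0.750 for PHACTR2, so PHACTR2 is CpG-poor only at its most upstream start. A link between promoter CpG and the line with the higher level was not tested.

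PLEK and SERPINB2 are known from myeloid cells, so markers of that lineage are given beside them. Of 8 myeloid markers only CEBPA reached 1 FPKM in any group, and ELANE was at 0 in all libraries. The markers summed to 3.0 to 3.25 FPKM in KO2, 2.88 to 3.44 FPKM in KO1 and 0.806 to 1.10 FPKM in WT. CEBPA, a transcription factor of the myeloid lineage, stood at 2.82, 2.43 and 2.89 FPKM in KO2, at 3.05, 2.61 and 2.78 FPKM in KO1 and at 1.08, 0.728 and 0.862 FPKM in WT. Of 5 erythroid markers none reached 1 FPKM in a group mean. The part of these markers in the result was not tested.

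**Figure D4:**
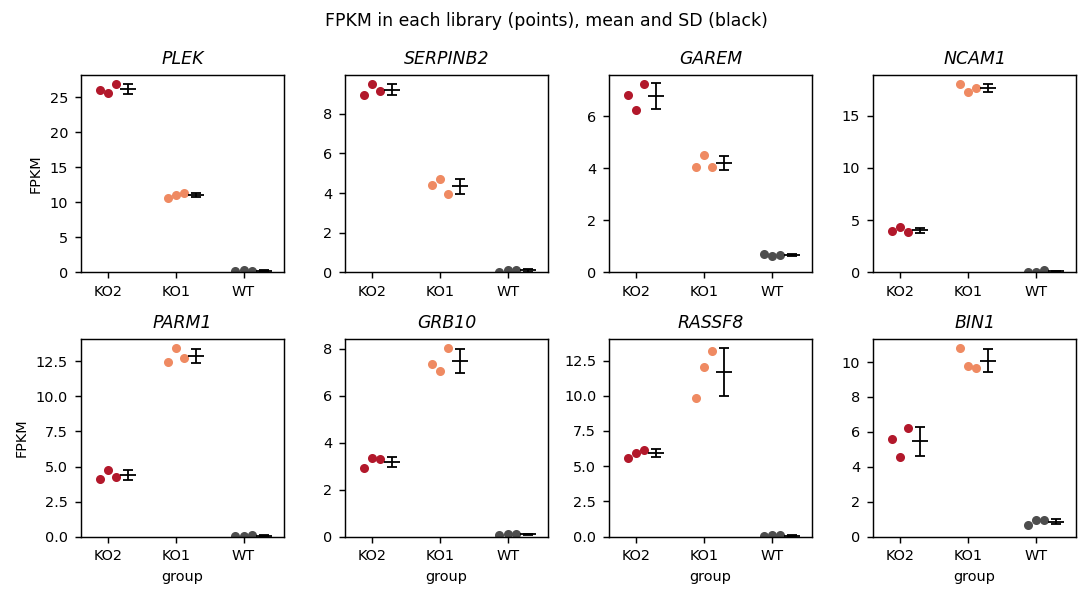
FPKM in each library (points, y axis, linear from 0) with mean and SD (black) for the 3 genes higher in KO2 (PLEK, SERPINB2, GAREM) and the 5 genes with the largest difference towards KO1 (NCAM1, PARM1, GRB10, RASSF8, BIN1), in KO2, KO1 and WT. In each panel the 3 groups occupy separate ranges, and WT lies near 0.

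Adhesion and membrane proteins formed the largest group, with 14 genes, of which 11 were lower in KO2 than in KO1, 0 were higher and 3 did not pass. The counts of this and the other role groups stand beside 54.8% lower and 4.84% higher over the 62 genes. Over all tested genes, 12.4% were lower and 18.3% higher. The role groups are small and were made by hand, and differences between them were not tested. NCAM1, the neural cell adhesion molecule that also marks natural killer cells as CD56, stood at 3.91, 4.33 and 3.85 FPKM in KO2, at 18.0, 17.3 and 17.6 FPKM in KO1 and at 0.0482, 0.0422 and 0.183 FPKM in WT. The KO1 libraries stood far above the KO2 libraries, the largest difference among the 62 genes (log2 difference -1.89 ± 0.075, limma adjusted p = 7.12e-08). Its paralogue NCAM2 had a mean of 0.0514 FPKM in KO2, 0.102 FPKM in KO1 and 0.0161 FPKM in WT. Of the other natural killer markers only NKG7 reached 1 FPKM, and KLRF1 was at 0 in all libraries. NKG7 had the higher mean in KO2, with 6.46 FPKM in KO2, 4.92 FPKM in KO1 and 2.14 FPKM in WT. The 6 markers, NCAM1 among them, summed to 8.99 to 11.5 FPKM in KO2, 21.0 to 23.6 in KO1 and 2.03 to 2.54 in WT. NCAM1 gave most of the KO1 sum. It was chosen for being low in WT and on in both lines, so the choice bears on this sum. The part of the natural killer markers in the result was not tested.

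PARM1, a mucin-like membrane protein, stood at 4.13, 4.77 and 4.23 FPKM in KO2, at 12.5, 13.5 and 12.8 FPKM in KO1 and at 0.0143, 0.05 and 0.117 FPKM in WT. The edited lines were again widely separated (-1.37 ± 0.076, limma adjusted p = 8.34e-07). PTPRG, a receptor-type tyrosine phosphatase, was the second strongest of the 62 genes by its lower edited mean, with 8.56, 8.26 and 8.79 FPKM in KO2, 10.1, 10.9 and 10.7 FPKM in KO1 and 0.248, 0.264 and 0.252 FPKM in WT. Its lines did not overlap, with a smaller difference (-0.28 ± 0.063, limma adjusted p = 0.00715). CACHD1, a membrane protein related to auxiliary subunits of calcium channels, behaved much like PTPRG, at 7.91, 7.85 and 8.27 FPKM in KO2, 9.97, 10.3 and 10.4 FPKM in KO1 and 0.415, 0.527 and 0.561 FPKM in WT.

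The immunoglobulin-like adhesion molecule CADM1 stood at 5.14 ± 0.317 FPKM in KO2, 7.60 ± 0.153 FPKM in KO1 and 0.350 ± 0.181 FPKM in WT (SD, n = 3 each). CADM1 and NCAM1 were the members among 47 WT-silent genes of the NCAM, L1CAM, CNTN, NRXN, NLGN, IGSF, CADM, JAM and CEACAM families. That is a share of 4.26%, beside 0.412% of all 15058 WT-silent genes. This share rests on 2 genes of a list chosen with earlier results of these data known, and it was not tested. BTNL9, a butyrophilin-like protein, stood at 5.06 ± 0.158 FPKM in KO2, 7.89 ± 0.481 FPKM in KO1 and 0.717 ± 0.0774 FPKM in WT. MLC1, a membrane protein known from astrocytes, stood at 4.26 ± 0.356 FPKM in KO2, 6.46 ± 0.224 FPKM in KO1 and 0.111 ± 0.0991 FPKM in WT. TNFRSF4, the T-cell costimulatory receptor OX40, was one of the few with the higher mean in KO2: 5.16, 5.29 and 4.48 FPKM in KO2, 3.69, 4.35 and 5.12 FPKM in KO1 and 0.687, 1.04 and 0.781 FPKM in WT. Its edited lines overlapped and the difference did not pass (0.16 ± 0.11, limma adjusted p = 0.325). It was the only member among 23 WT-silent genes of the TNF superfamily and its receptors. That share of 4.35%, beside the 0.412% above, rests on this gene alone and was not tested. TMEFF1 is overlapped by the readthrough gene MSANTD3-TMEFF1, whose means were 13.5, 19.4 and 4.83 FPKM in KO2, KO1 and WT, so reads may be split between them. It varied most within KO2, at 2.61, 3.64 and 5.58 FPKM.

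Secreted proteins and pathway antagonists numbered 7, of which 2 were lower in KO2, 1 (SERPINB2) was higher and 4 did not pass. BAMBI, a decoy receptor that dampens TGF-beta signalling, stood at 4.52, 4.04 and 4.10 FPKM in KO2, at 7.92, 7.41 and 8.59 FPKM in KO1 and at 0.364, 0.209 and 0.105 FPKM in WT. Every KO1 library lay above every KO2 library (-0.78 ± 0.093, limma adjusted p = 0.000152). FSTL1, a secreted follistatin-like glycoprotein, had the highest KO1 mean of this group, with 5.79, 6.4 and 5.27 FPKM in KO2, 9.93, 9.56 and 9.91 FPKM in KO1 and 0.439, 0.644 and 0.824 FPKM in WT (-0.67 ± 0.095, limma adjusted p = 0.000496).

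The BMP antagonist NBL1 stood at 5.23, 6.96 and 6.02 FPKM in KO2, at 8.74, 9.24 and 5.97 FPKM in KO1 and at 0.488, 0.866 and 0.000599 FPKM in WT. It varied within groups, its edited lines overlapped, and the readthrough gene MINOS1-NBL1 covers it. PROK2, a secreted prokineticin, stood at 5.26 ± 0.928 FPKM in KO2, 6.09 ± 0.849 FPKM in KO1 and 0.684 ± 0.124 FPKM in WT. FJX1, a secreted protein of the four-jointed family, had nearly equal means of 4.03 ± 0.488 FPKM in KO2 and 3.88 ± 0.236 FPKM in KO1, and 0.372 ± 0.0748 FPKM in WT. PRF1, the pore-forming protein of cytotoxic lymphocytes, was near the limit, at 3.62, 3.19 and 2.79 FPKM in KO2, 3.72, 3.8 and 3.83 FPKM in KO1 and 0.901, 0.836 and 0.872 FPKM in WT.

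Transcription factors and chromatin proteins numbered 9, of which 3 were lower in KO2, 0 were higher and 6 did not pass. DACH1, a transcription factor of the retinal determination network, had the lowest WT mean of the genes with trusted values besides SORBS2: 0.0157, 0 and 0.0484 FPKM. It reached 7.01, 6.97 and 6.54 FPKM in KO2 and 7.06, 8.37 and 8.29 FPKM in KO1, all far above WT. The lines differed little (-0.18 ± 0.078, limma adjusted p = 0.105), although DACH1 passed without KO1 replicate 1 (adjusted p = 0.0391). Its paralogue DACH2 was listed at 0 in all groups.

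MECOM, which encodes the leukaemia-associated zinc finger factor EVI1, stood at 3.0, 3.19 and 3.24 FPKM in KO2, at 5.70, 5.24 and 6.09 FPKM in KO1 and at 0.013, 0.0456 and 0.0163 FPKM in WT. The groups did not overlap (-0.69 ± 0.076, limma adjusted p = 9.69e-05). FOXO1, a factor of lymphocyte quiescence and survival, stood at 3.19, 3.13 and 3.07 FPKM in KO2, at 4.33, 4.40 and 4.33 FPKM in KO1 and at 0.941, 0.702 and 0.808 FPKM in WT (-0.37 ± 0.073, limma adjusted p = 0.00343). Counted by symbol start, FOXO1 was the only member among 192 WT-silent genes of 30 transcription factor families. That is 0.521%, near the 0.412% of all WT-silent genes. MECOM is a relative of PRDM16, a gene of a listed family, but has another symbol and is not in this count. Nor are DACH1, ZBTB16, NFE2 and PLAGL1, so the share does not cover all transcription factors. HOX genes are not among these families, and HOXD8 met the limits. The FOXO1 relatives FOXO3 and FOXO4 were already on in WT, at 6.87, 7.49 and 9.50 FPKM for FOXO3 and 3.93, 2.77 and 4.28 FPKM for FOXO4 in KO2, KO1 and WT.

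ZBTB16 encodes PLZF, a factor of innate-like T cells, and its libraries stood at 3.60, 4.63 and 3.82 FPKM in KO2, 3.75, 3.33 and 3.94 FPKM in KO1 and 0.101, 0 and 0.392 FPKM in WT. NFE2, a factor of erythroid cells and megakaryocytes, stood at 4.50, 3.74 and 3.66 FPKM in KO2, at 2.90, 2.59 and 3.56 FPKM in KO1 and at 0.187, 0.323 and 0.161 FPKM in WT. All NFE2 libraries of KO2 lay above those of KO1, but the difference did not pass (0.31 ± 0.11, limma adjusted p = 0.0537); it passed without KO1 replicate 3 (0.0223) and with robust moderation (0.0498). PLAGL1, an imprinted zinc finger gene, stood at 5.72 ± 0.511 FPKM in KO2, 6.80 ± 0.353 FPKM in KO1 and 0.421 ± 0.147 FPKM in WT. ZNF618 was the member closest to the WT limit, at 6.03 ± 0.384 FPKM in KO2, 5.76 ± 0.294 FPKM in KO1 and 0.978 ± 0.0464 FPKM in WT. It was the only member among 190 WT-silent ZNF genes, a share of 0.526%, near the 0.412% of all WT-silent genes.

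Intracellular signalling proteins and GTPase regulators numbered 13, of which 7 were lower in KO2, 2 (PLEK and GAREM) were higher and 4 did not pass. GRB10, an adaptor of the insulin receptor and an imprinted gene, stood at 2.92, 3.33 and 3.29 FPKM in KO2, at 7.34, 7.04 and 8.03 FPKM in KO1 and at 0.0636, 0.0926 and 0.108 FPKM in WT. Every KO1 library lay above the highest KO2 library (-1.02 ± 0.078, limma adjusted p = 7.65e-06). RASSF8, a Ras association domain protein, stood at 5.6, 5.93 and 6.18 FPKM in KO2, at 9.81, 12.1 and 13.2 FPKM in KO1 and at 0.026, 0.0758 and 0.076 FPKM in WT (-0.87 ± 0.097, limma adjusted p = 9.63e-05). The overlapping antisense gene RASSF8-AS1 had means of 0.832 FPKM in KO2, 1.58 FPKM in KO1 and 0 in WT, and reads of the 2 genes may not have been told apart.

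PSD3, an exchange factor for ARF6, was among the most even genes, at 5.4, 5.37 and 5.5 FPKM in KO2, 5.87, 5.97 and 6.55 FPKM in KO1 and 0.0211, 0.00822 and 0.0355 FPKM in WT. The lines did not overlap, but the difference did not pass (-0.15 ± 0.069, limma adjusted p = 0.127). PHACTR2, a protein phosphatase 1 and actin regulator, stood at 4.50 ± 0.105 FPKM in KO2, 5.91 ± 0.089 FPKM in KO1 and 0.200 ± 0.0418 FPKM in WT. WWC2, of the KIBRA family of the Hippo pathway, stood at 5.74 ± 0.245 FPKM in KO2, 6.78 ± 0.337 FPKM in KO1 and 0.443 ± 0.0434 FPKM in WT. Its relative WWC3 missed the KO1 limit, with means of 3.49, 2.91 and 0.647 FPKM in KO2, KO1 and WT, and WWC1 had means of 2.45, 3.71 and 0.149 FPKM.

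Genes of the cytoskeleton and of membrane shape numbered 9, of which 6 were lower in KO2, 0 were higher and 3 did not pass. KIAA1211, which encodes the actin regulator CRACD, stood at 6.79, 6.58 and 6.73 FPKM in KO2, at 10.8, 11.7 and 11.5 FPKM in KO1 and at 0.612, 0.655 and 0.669 FPKM in WT (-0.68 ± 0.062, limma adjusted p = 2.62e-05). BIN1, a BAR-domain protein that bends membranes, stood at 5.59, 4.53 and 6.22 FPKM in KO2, at 10.8, 9.75 and 9.65 FPKM in KO1 and at 0.687, 0.920 and 0.963 FPKM in WT (-0.79 ± 0.10, limma adjusted p = 0.000298). In both genes all KO1 libraries exceeded all KO2 libraries.

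KIF21A, a kinesin motor, stood at 6.15 ± 0.417 FPKM in KO2, 9.10 ± 0.838 FPKM in KO1 and 0.308 ± 0.0711 FPKM in WT, beside its paralogue KIF21B, which had means of 15.3, 14.1 and 16.1 FPKM in KO2, KO1 and WT. MTUS1, a microtubule-associated protein, stood at 5.89, 6.17 and 6.51 FPKM in KO2, at 7.46, 8.21 and 7.65 FPKM in KO1 and at 0.0805, 0 and 0.0134 FPKM in WT. GAS2, which links actin and microtubules, had the higher mean in KO2, at 7.15 ± 0.661 FPKM against 6.05 ± 0.930 FPKM in KO1 and 0.804 ± 0.125 FPKM in WT, a difference that did not pass (0.21 ± 0.10, limma adjusted p = 0.147) and that passed without KO1 replicate 3 (0.0377). NAV1, a neuron navigator, was nearly equal between the lines, at 4.55 ± 0.0994 FPKM in KO2 and 4.41 ± 0.503 FPKM in KO1, and 0.306 ± 0.105 FPKM in WT.

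The other 10 genes have other or little known roles, and 5 of them were lower in KO2, 0 were higher and 5 did not pass. EPSTI1, an interferon-inducible gene, was level between the lines, at 5.62 ± 0.327 FPKM in KO2, 5.57 ± 0.418 FPKM in KO1 and 0.914 ± 0.221 FPKM in WT. SPATS2L stood at 3.77 ± 0.0713, 6.62 ± 0.231 and 0.196 ± 0.0442 FPKM in KO2, KO1 and WT (-0.67 ± 0.069, limma adjusted p = 5.77e-05), while its paralogue SPATS2 had means of 16.2, 16.3 and 17.4 FPKM. LRRC18 is overlapped by WDFY4, whose means were 0.0668, 0.103 and 0.0237 FPKM in KO2, KO1 and WT, and LRRC18 stood at 3.56, 4.92 and 5.66 FPKM in KO2, at 7.96, 6.56 and 7.26 FPKM in KO1 and at 0.537, 0.505 and 0.505 FPKM in WT. EEF1DP3 is a pseudogene whose reads may come from its parent gene, and it varied most within KO1, at 2.17, 3.88 and 3.66 FPKM.

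Of the 37 members that differed between the edited lines, 27 passed under every alternative they were tested in and 10 lost the call in at least 1. LRRC18 lost it without a filter (limma adjusted p = 0.0568), and MLC1 and CADM1 with a pseudocount of 0.1 (adjusted p = 0.187 and 0.0771). MTUS1 did not pass without KO1 replicate 2 (0.0561) or KO2 replicate 1 (0.0552), and ERRFI1, an inhibitor of the EGF receptor, not without KO2 replicate 1 (0.0507). NETO1 did not pass without KO1 replicate 2 (0.0564), KO1 replicate 3 (0.0585) or KO2 replicate 1 (0.0632). BEND7 did not pass without KO1 replicate 3 (0.0661) or KO2 replicate 3 (0.0678). PVRL3, which encodes nectin-3, lost its call without replicate 2 (0.057) or 3 (0.0729) of KO1, and without replicate 1 (0.0646) or 2 (0.0813) of KO2. SORBS2 lost it without replicate 1 (0.0535) or 3 (0.0643) of KO1, and without replicate 1 (0.0823) or 2 (0.060) of KO2. WWC2, close to the threshold (adjusted p = 0.0436), lost it without replicate 2 of WT (0.0539), replicate 2 (0.123) or 3 (0.124) of KO1, or any replicate of KO2 (0.0593 to 0.138). ERRFI1, BEND7, PVRL3, MTUS1, SORBS2 and WWC2 also did not pass with a pseudocount of 0.1 (0.0715 to 0.243), and ERRFI1, BEND7 and PVRL3 not without a filter (0.0598 to 0.069). Of the 25 members that did not pass, 9 did so under at least 1 alternative: DACH1, NFE2, GAS2, TMEFF1, STEAP1, RHOBTB1, SPECC1, PRF1 and PRR22.

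Close relatives of the members were described beside them. For 37 of the 62 genes, 86 close relatives were found in the table by name, and none of these relatives was under 1 FPKM in WT and at 3 or more in both lines. Of the relatives, 34 were at 3 FPKM or more in WT already and 43 were under 1 FPKM in WT. The share of members among all WT-silent genes, 0.412%, would give fewer than 1 among these 43, so this 0 is near the background. No ion channel gene of 197 WT-silent ones, no integrin of 16, no collagen of 45, no laminin of 12, no keratin of 61, no cancer-testis gene of 106, no gene of 126 interleukins, chemokines and their receptors and no WNT, BMP, FGF or Hedgehog gene of 73 was a member. The 0.412% of WT-silent genes that were members would give fewer than 1 in each of these families, so the zeros are near the background. Solute carriers also gave 0 members of 204 WT-silent genes, but there the rule set the count, since SLC7A8 and SLC27A2 met the limits and were left out by name.

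No 2 of the members were next to each other among 11560 tested genes placed in RefSeq gene order (GRCh38.p14, used only for order). With so small a share of members such pairs would be rare in any case, so their absence is near the background. Chromosomes 20, 21 and X held 0 members among 318, 121 and 383 tested genes. The highest shares were on chromosomes 18 (3 of 157, 1.91%) and 13 (4 of 216, 1.85%). With 62 members over 11560 genes these counts are small, and they were not tested. The genes next to the members were mostly expressed already: of 118 neighbouring tested genes that overlap no member, 103 had a WT mean of 3 FPKM or more. Of these 118 neighbours, 49 (41.5%) were higher in both edited lines than in WT and 23 (19.5%) lower in both, against 30% and 22.3% of all tested genes. These comparisons share the WT libraries.

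In 2 places a pair of members had 1 tested gene between them, and in both that gene was higher in both edited lines than in WT. The number of such places was not tested, and 30% of all tested genes were higher in both lines. On chromosome 6, LTV1, a ribosome biogenesis factor, lies between PHACTR2 and PLAGL1 and had means of 71.7 FPKM in KO2, 67.4 FPKM in KO1 and 33.7 FPKM in WT (log2 difference from WT 1.07 in KO2 and 0.98 in KO1, limma adjusted p = 3.24e-07 and 4.66e-07). On its outer sides, PEX3 was lower in both lines, with means of 11.1, 10.7 and 12.8 FPKM in KO2, KO1 and WT, and SF3B5 had 92.1, 80.5 and 96.4 FPKM. The other pair lies on chromosome 4. SORBS2, an adaptor protein of actin fibres, stood at 3.64, 3.94 and 4.27 FPKM in KO2, at 5.03, 4.78 and 5.14 FPKM in KO1 and at 0, 0.0213 and 0.0425 FPKM in WT. FAM149A stood at 3.06, 3.28 and 2.72 FPKM in KO2, at 4.58, 5.51 and 5.36 FPKM in KO1 and at 0.0944, 0 and 0.073 FPKM in WT. Both were on in every edited library and near 0 in WT. Between them lies TLR3, a receptor of double-stranded RNA, which missed the KO2 limit by a small margin, at 2.89, 2.68 and 3.30 FPKM in KO2, 11.5, 10.8 and 13.0 FPKM in KO1 and 0.44, 0.227 and 0.483 FPKM in WT. CYP4V2, a fatty acid hydroxylase and the next gene, was on in WT and higher in both lines, at 6.43 ± 0.280 FPKM in KO2, 8.18 ± 0.458 FPKM in KO1 and 2.80 ± 0.102 FPKM in WT. It passed against WT in both lines (0.97 ± 0.065 in KO2 and 1.27 ± 0.065 in KO1, limma adjusted p = 4.38e-07 and 4.17e-08). The genes directly next to this run did not follow. C4orf47 was lower in both lines, with means of 0.372, 0.361 and 1.53 FPKM in KO2, KO1 and WT. FAT1 had 38.3, 40.3 and 46.7 FPKM. Further out, SNX25 had slightly higher means in both lines, with 5.46, 5.91 and 4.59 FPKM in KO2, KO1 and WT. SNX25 passed against WT in KO1 (limma adjusted p = 0.0101) but not in KO2 (0.0556).

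**Figure D5:**
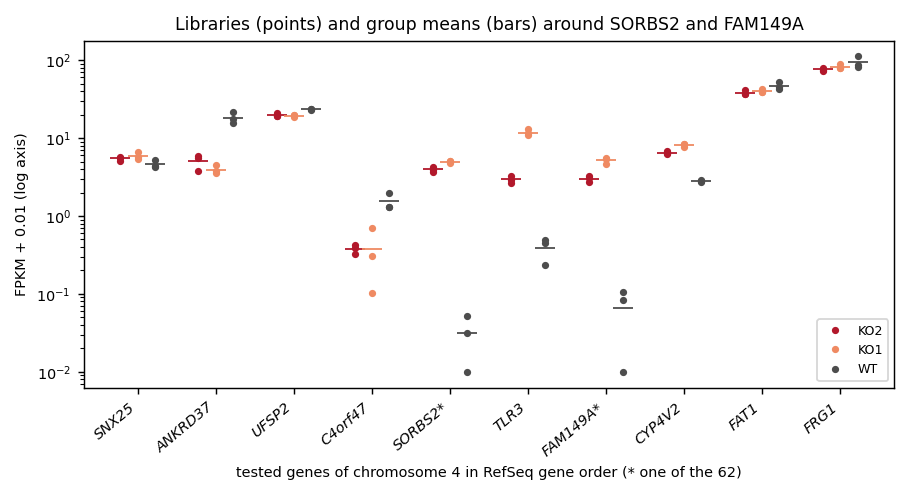
FPKM + 0.01 (y axis, log) of 10 tested genes of chromosome 4 in RefSeq gene order (x axis), with points for the libraries and bars for the means of KO2, KO1 and WT. SORBS2, TLR3, FAM149A and CYP4V2 are higher in both edited lines than in WT. The genes directly next to these 4, C4orf47 and FAT1, have lower means in both lines. SNX25, further out, has slightly higher means in both lines than in WT.

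Polycomb subunit genes gave no members. The 62 members among 11737 tested genes would give fewer than 1 in lists this short, so this is near the background. Of 12 tested genes of Polycomb repressive complex 2, 2 were higher and 7 lower in each edited line than in WT, and 2 were higher and 1 lower in KO2 than in KO1. Of 19 tested genes of Polycomb repressive complex 1, the complex that binds the mark, 9 were higher and 5 lower in KO2 than in WT, 8 were higher and 5 lower in KO1 than in WT, and 1 was higher and 2 lower in KO2 than in KO1. Against WT, 64.7% of all tested genes passed in KO2 (38.1% higher, 26.6% lower) and 67.5% in KO1 (35.6% higher, 31.9% lower).

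The limits that define the 62 genes cut through a continuum. Just inside the WT limit lay ZNF618, CPNE2 and TMEFF1, with WT means of 0.978, 0.971 and 0.957 FPKM, and just outside lay TMEM52, RETN and PCOLCE2, with 1.01, 1.02 and 1.05 FPKM. At the KO1 limit, NFE2, EEF1DP3 and PRR22 lay inside with 3.01, 3.24 and 3.37 FPKM, and WWC3, KCTD11 and TMEM132A outside with 2.91, 2.46 and 2.28 FPKM. At the KO2 limit, FAM149A, DENND5B and ARHGAP42 lay inside with 3.02, 3.10 and 3.11 FPKM, and TLR3, SOX5 and KLF5 outside with 2.95, 2.92 and 2.83 FPKM. Within groups the coefficient of variation had a median of 7.44% in KO2 and 6.51% in KO1 over the 61 genes without H3F3A. It was over 20% for LRRC18, TMEFF1, PRR22 and EEF1DP3 in KO2 and for NBL1 and EEF1DP3 in KO1.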

How the data were processed

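The deposited values are FPKM, in 1 table by the authors with 9 library columns. The submitters' processing notes list bedtools 2.7.0, Cufflinks 2.2.1, STAR 2.5.0b and genome build hg19. Which annotation and strand setting were used, and whether libraries were scaled to each other, is not stated, so overlapping, antisense and near-identical genes may share reads. Groups were read from the sample titles. Of 26228 rows, 38 contained text and were dropped. Count tests do not suit FPKM, and depth in reads is unknown, so no counting interval is given. Genes with FPKM of 1 or more in 3 or more of 9 libraries (11737, including all 62 members) were fitted on log2(FPKM + 1) by limma 3.58.1 (R 4.3.3). The fit used every library, a mean-variance trend and no covariates, and was tested on simulated data. A gene passed at a Benjamini-Hochberg adjusted p under 0.05. Fold differences on this scale understate those of weakly expressed genes.

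The members, roles and lists were chosen with earlier results of these data known. Genes were named by a rule: the 20 members with the highest smaller edited mean, the largest differences between lines, up to 5 per role, listed genes, neighbours and genes at the limits. Some further members and the relatives were named after their values were seen. Family names were read with the number or subunit letter that follows the symbol start. Alternatives were other pseudocounts, filters, scalings, moderation and samples in the fit, a replicate block, and each library left out.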

Additional observations from a re-analysis of the deposited data

Results flagged for a closer look

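For 11 of the 62 genes, the 8 with the largest difference towards KO1 and the 3 that were higher in KO2, the change from WT differed between the edited lines by the test of KO2 against KO1 (limma, adjusted p under 0.05 over 11737 genes). Lower in KO2, with all 3 libraries under those of KO1, were NCAM1 (log2 difference -1.89), PARM1 (-1.37), GRB10 (-1.02) and RASSF8 (-0.87). BIN1 (-0.79), BAMBI (-0.78), MECOM (-0.69) and KIAA1211 (-0.68) were also lower in all 3 KO2 libraries. Higher in all 3 KO2 libraries were PLEK (1.18), SERPINB2 (0.94) and GAREM (0.58). Both lines were set against the same WT libraries, so this is a difference between 2 single lines.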

How the results depend on the processing

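The split of the members between the edited lines kept its direction throughout: 24 to 38 members were lower in KO2 and 3 to 5 higher over 18 alternatives. With 1 library left out, 30 to 35 were lower and 3 to 5 higher; the 5 were seen without KO1 replicate 3, where NFE2 and GAS2 also passed. The 8 members with the largest difference towards KO1 and the 3 higher in KO2 kept direction and call under all 18. They were picked by the same test on the same libraries, so this is no further support. Of all 37 called members, 10 lost the call in at least 1 alternative. Same-numbered libraries did not deviate together (correlations of -0.206 to 0.195 between groups, against -0.196 to 0.272 for other pairs), so the numbers were not taken as pairs. With a replicate block, 34 members were lower and 3 higher; 36 calls were shared, WWC2 lost its call (limma adjusted p = 0.0645) and STEAP1 gained one. The number of members depends on its limits: 35 with a WT mean under 0.5 FPKM, 23 with edited means of 5 FPKM or more, 45 with the limits applied to every library, 49 after quantile normalization, and 58 to 64 with 1 library left out. Genes called over the whole table stayed within 1.5 times the reported counts under every alternative; with 1 library left out, 1531 to 2481 were higher and 1112 to 1600 lower in KO2 than in KO1. Depth in reads is unknown, so WT values near 0 rest on few fragments.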
